A study of Mus musculus with 4 samples.

Results

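The medulla is the inner compartment of a lymph node, a meshwork of lymphatic sinuses and of cords of tissue between them. Lymph leaves the node through the sinuses, which are lined by lymphatic endothelium and patrolled by macrophages. Plasma cells, which secrete antibody, gather in the cords before they leave the node or settle there, and reticular stromal cells give the cords their frame. The spots described here are those that the authors named Medulla in their table of a Visium experiment, in which each spot of an array captures the RNA of a small region that can hold several cells of different types. They numbered 2130 of 7271 spots over tissue, with 478 of 1650 in section A, 479 of 1876 in section B, 565 of 1858 in section C and 608 of 1887 in section D. The medulla thus took 29.0, 25.5, 30.4 and 32.2% of the spots.

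All sections belonged to 1 group, draining lymph node of mice that had been immunized 14 days and given a gavage 3 days before the node was taken. The sections were 10 µm thick, were cut from a frozen block 50 µm apart and carried 1 sample ID stem. How many animals were used, their strain, age and genotype, the immunogen and the substance given by gavage are not stated in the sources used here. The section names in the deposited table carry the word eYFP, the name of a yellow fluorescent protein, which these sources do not explain. Each comparison was made within sections and summarised over the 4 sections, so errors and p-values measure only the spread between serial sections, which may be technical.

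The name Medulla followed expression. At the finer of 2 deposited clusterings, with 4 clusters, 2126 of the 2130 spots lay in 1 cluster, which also held all 235 spots of GC_Medulla Border, the rim of the germinal centres on the medullary side. Lyve1, Marco, Prox1, C1qa and Siglec1, which mark lymphatic endothelium and sinus macrophages, could not be set against the name because values of single genes were not analysed here. What follows therefore describes spots named Medulla through 10 deposited measures. These were the unique molecular identifiers (UMIs, each counting 1 captured transcript) and genes per spot, the percent of UMIs from mitochondrial and from ribosomal genes, and 6 scores, whose gene lists these sources do not state. The score pc_markers is read as a plasma cell marker score. Mo_GC_vs_Mem is read as a germinal centre score. Mo_CD34_SC, Mo_Inmt_SC, Mo_Nr4a1_SC and Mo_Nr4a1Inmt_SC are called stromal scores after the names of lymph node stromal clusters, in which Cd34 encodes a surface sialomucin, Inmt a methyltransferase and Nr4a1 a nuclear receptor. Scores have no true zero, so differences are given for them and no ratios.

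In a spot, fewer cells of a type and less RNA per cell cannot be told apart. Medulla spots held 17.6% ± 3.03 of a section's UMIs (SD, n = 4). Median UMIs per spot were 3850, 6986, 2128 and 2537.5 in A to D, and 123 spots had fewer than 1000 UMIs, of which 67 lay in C, 41 in D, 13 in A and 2 in B. Sections A and B were deeper than C and D, and this split ran through several scores.

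The medulla combined a high mitochondrial share with a low ribosomal share. The mitochondrial share averaged 6.37, 4.93, 5.52 and 5.49% of UMIs in sections A to D. It lay above the T zone of the same section by 1.48 ± 0.605 percentage points and above GC_Medulla Border by 1.72 ± 0.465, in 4 of 4 sections each. Above the B zone it lay by 0.343 ± 0.564, in 3 of 4 sections. The ribosomal share, from genes for ribosomal proteins, averaged 18.5, 16.1, 17.0 and 16.7% in A to D, and differed from the T zone by -6.66 ± 1.96 points and from the B zone by -6.68 ± 1.5, below 0 in 4 of 4 sections. From GC_Medulla Border it differed by only -0.451 ± 0.738 points, below 0 in 3 of 4. These contrasts are a description without a test, since the regions follow clusters of the same expression values.

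Most of the variation in these measures lay inside a section. The SD over the Medulla spots of a section was 3.23 times the SD between section means for the mitochondrial share, 3.67 times for the ribosomal share and 7.47 times for Mo_Inmt_SC. For pc_markers it was 1.68 times, with section means of 0.299, 0.359, 0.227 and 0.230 in A to D, in which the deeper sections were the higher. For UMIs it was 0.890 times, so depth differed about as much between sections as within them.

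Position inside the medulla was read from the 6 neighbours that an interior spot has on the hexagonal array. Edge spots, with fewer than 6 neighbours among the deposited spots, numbered 335, or 15.8% ± 0.585 of Medulla spots. A spot beside a tissue-marked position that was absent from the deposited spots thus also counted as edge. Contact spots, with 6 neighbours of which at least 1 was T zone or B zone, numbered 646 (30.3% ± 0.7), of which 462 touched T zone alone, 132 B zone alone and 52 both. A further 128 spots (6.03% ± 1.82) touched GC_Medulla Border but neither zone, and 16 touched only another germinal centre border. The 1005 inner spots (47.1% ± 1.37), with 6 Medulla neighbours, served as the reference. The maps of Medulla spots show the inner spots as broad tongues and the contact spots as a rim along the cortex.

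**Figure D1:**
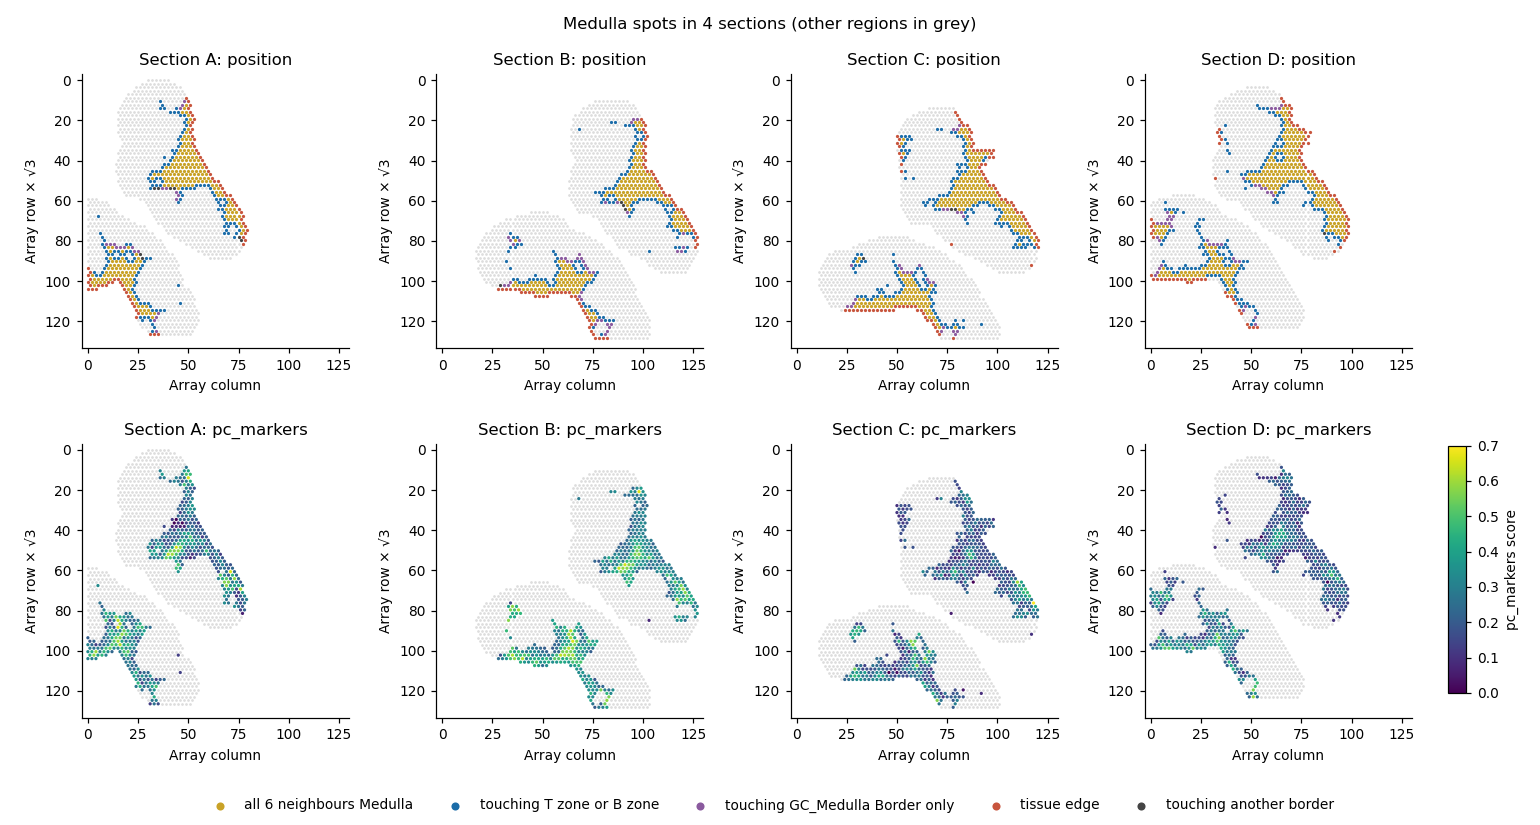
Medulla spots of sections A to D on the array, in array columns and in array rows scaled to equal distance, with spots of other regions in grey. The upper row colours spots by position and the lower row by the pc_markers score, drawn from 0 to 0.7, and the 1005 inner spots can be seen in both tissue pieces of every section.

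The medulla's part of the tissue margin was near its part of all spots. Of all 1032 edge spots, 32.5% were Medulla, against a mean of 29.3% of all spots of a section. B zone gave 521 edge spots, with 1294 spots in all, and T zone gave 11, with 1834 in all. Among the Medulla edge spots, 77 had 5 neighbours, 181 had 4 and 77 had 3 or fewer, and 52 also touched T zone, B zone or GC_Medulla Border. At 20 of them, 7, 5, 0 and 8 in A to D, the capture area itself ended, so that tissue may have gone on beyond it.

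Edge spots had a higher mitochondrial share, a higher ribosomal share and more UMIs than inner spots. The mitochondrial share at the edge was 7.61%, 6.30%, 7.35% and 6.96% in A to D, against 6.40, 4.90, 5.83 and 5.88% in inner spots. Edge spots were the higher in every section, by 1.31 ± 0.193 percentage points (n = 4, exact sign-flip p = 0.125, adjusted p 0.17), and by 1.38 ± 0.102 without the spots at the limit of the capture area. The ribosomal share was 20.5, 17.6, 18.6 and 18.3% at the edge and 16.8, 14.1, 15.5 and 15.5% inside, a difference of 3.29 ± 0.431 points in 4 of 4 sections. Against every Medulla spot with 6 neighbours it was 2.00 ± 0.261. The lowest edge value, in B, exceeded the highest inner value, in A, so the section means of the ribosomal share did not overlap. UMIs were 4265, 9027, 3544 and 3349 per spot at the edge and 3636, 7253, 1941 and 2730 inside, higher at the edge in 4 of 4 sections by 1156 ± 619. Here the ranges overlapped, since sections differed more than classes did.

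With 4 sections the exact test cannot go below p = 0.125, so no comparison here could pass a threshold of 0.05, and the number of sections that share a direction is given instead. All 60 comparisons of classes and measures formed 1 family, in which the smallest adjusted p was 0.17 and 44 comparisons had 1 direction in all 4 sections. Edge against inner gave 7 of 10 measures, T zone or B zone contact against inner 10 of 10, and GC_Medulla Border contact against inner 5 of 10.

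Among the scores, Mo_GC_vs_Mem was higher at the edge, by 0.0193 ± 0.00651 in 4 of 4 sections, and it also followed depth, with a Spearman's rho of 0.764 ± 0.124 against UMIs within the medulla. Its edge difference was 0.00645 once a line on log10 UMIs was taken out. Mo_CD34_SC was 0.0112, 0.0278, 0.0179 and 0.00932 in A to D at the edge and 0.0101, 0.0239, 0.00916 and 0.00783 inside. The edge was higher in 4 of 4 sections, by 0.00383 ± 0.00353, but by 0.000916 after the fit on UMIs, by 0.000126 in the lower of 2 tissue pieces and by 0.00218 without section C. It was larger in the upper piece, at 0.00674, with contact assigned before edge, at 0.00667, and against every Medulla spot with 6 neighbours, at 0.00819. Stromal cells that carry CD34 have been described in the capsule and around large vessels of lymph nodes. Mo_Nr4a1_SC differed at the edge by -0.00646 ± 0.00270, below 0 in 4 of 4 sections. This difference was -0.00431 in the lower piece and -0.00405 with contact assigned before edge. Against every Medulla spot with 6 neighbours it was -0.00194 ± 0.00193, above 0 in 1 of 4 sections. The plasma cell score had no single direction at the edge, with differences from inner spots of -0.0356, -0.0563, 0.0204 and -0.0125 in A to D. After the fit on UMIs the mean difference was -0.0451 in place of -0.0210, below 0 in 4 of 4 sections. With contact assigned before edge it was smaller, at -0.0129. Against every Medulla spot with 6 neighbours it was -0.0064 ± 0.0240, above 0 in 1 of 4 sections.

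The mitochondrial share and Mo_CD34_SC were lower inward over several spots. By steps from the nearest edge spot, the mitochondrial share averaged 7.06% at 0, 6.47% at 1, 5.71% at 2, 5.22% at 3 and 4.71% at 4 steps, and lay between 4.70 and 4.98% beyond that. Mo_CD34_SC averaged 0.0166 at the edge, 0.0132 at 2 steps, 0.00546 at 4 steps and 0.00232 at 8 or more. The ribosomal share stood out at the outermost spot, from 18.8% at the edge to 16.6% at 1 step, and was 17.1% at 3 steps. The last bin, of 8 steps or more, held 218 spots, at least 45 in every section.

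**Figure D2:**
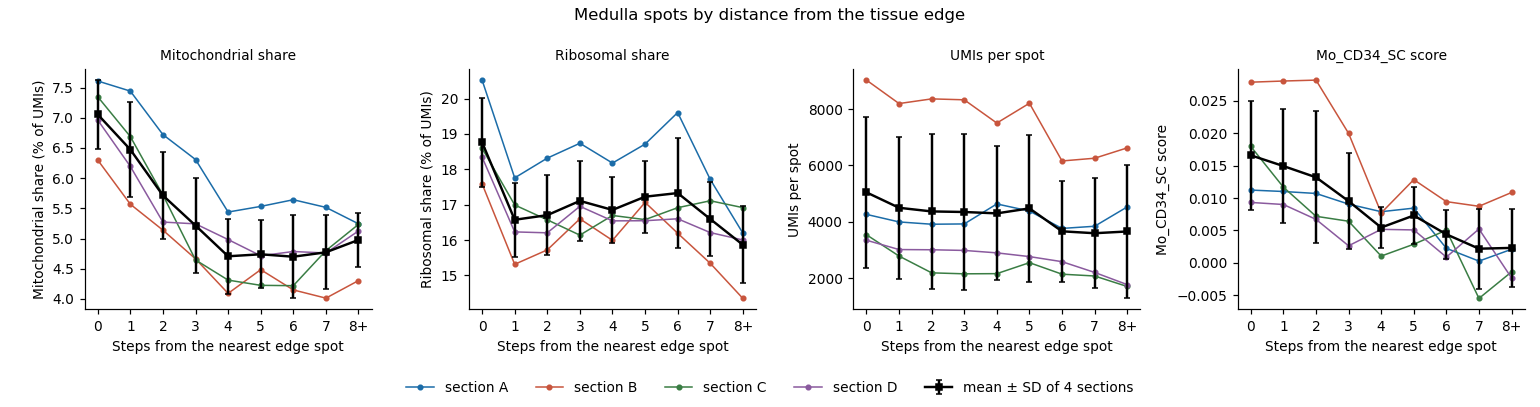
Section means of 4 measures in Medulla spots against the number of array steps from the nearest edge spot, with coloured lines for sections A to D and black squares for the mean ± SD of 4 sections. The mitochondrial share goes from 7.06% at the edge to 4.71% at 4 steps, while the ribosomal share drops between 0 and 1 step.

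A higher mitochondrial share at the edge was also measured in B zone. Edge spots against spots with 6 neighbours differed by 1.75 ± 0.302 percentage points in Medulla and by 1.5 ± 0.436 in B zone, each above 0 in 4 of 4 sections. The difference between these, 0.251 ± 0.224, was above 0 in 3 of 4 (n = 4, sign-flip permutation p = 0.25, adjusted p 0.36 over 10 measures). In B zone the share was also lower inward, from 6.13% at the edge to 5.20% at 1 step, 4.37% at 2 and 3.75% at 3 steps, and was 4.11% at 4 or more. For UMIs the edge difference was 882 ± 593 in Medulla and 2674 ± 687 in B zone, the smaller in Medulla everywhere (sign-flip permutation p = 0.125, adjusted p 0.25). These are absolute differences, and B zone was the deeper region, with a mean of 8671 UMIs per spot against 4305 in Medulla. The edge difference of Mo_Nr4a1_SC was -0.00194 ± 0.00193 in Medulla and 0.00292 ± 0.00171 in B zone, and Medulla was the lower in 4 of 4 sections.

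Where the medulla touched the T zone or B zone, all 4 stromal scores, the plasma cell score and the mitochondrial share were lower than in inner spots, and the ribosomal share was higher. Mo_Inmt_SC was -0.00722, -0.00776, -0.0142 and -0.0107 in A to D in contact spots, and 0.00415, 0.00759, 0.00162 and -0.00205 in inner spots. No contact value reached the lowest inner value, and the mean difference was -0.0128 ± 0.00343 (n = 4, exact sign-flip p = 0.125, adjusted p 0.17). Mo_Nr4a1Inmt_SC differed by -0.0127 ± 0.00401, Mo_Nr4a1_SC by -0.0112 ± 0.00593 and Mo_CD34_SC by -0.00997 ± 0.00369, each below 0 in 4 of 4 sections. Among spots at least 4 steps from the edge the Mo_CD34_SC difference was -0.00576, below 0 in 4 of 4. Contact spots were also deeper than inner spots, by 645 ± 388 UMIs and 314 ± 132 genes, in 4 of 4 sections each. Mo_GC_vs_Mem was higher in contact spots by 0.0172 ± 0.00483 in 4 of 4 sections, and by 0.0106 after the fit on UMIs.

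The plasma cell score in contact spots was 0.266, 0.309, 0.207 and 0.204 in A to D, against 0.317, 0.392, 0.227 and 0.242 in inner spots. Contact spots were the lower in every section, with a mean difference of -0.0478 ± 0.0264, although the ranges over sections overlapped. The ribosomal share was 20.4, 18.6, 18.6 and 18.1% in contact spots, above the inner values given for the edge comparison by 3.44 ± 0.834 points and without overlap. The mitochondrial share was 5.87, 4.56, 4.28 and 4.47%, a difference of -0.953 ± 0.608 points, and the sections differed in size, with -0.528 in A and -0.339 in B against -1.54 in C and -1.40 in D. The size also differed with distance from the margin. Among spots at least 4 steps from an edge spot the mitochondrial difference was -0.530, still below 0 in 4 of 4 sections, and in the lower tissue piece alone it was -0.327, below 0 in 2 of 4. Contact is defined by the names of neighbouring spots, which follow expression, so these contrasts trace how values run toward a boundary that expression drew.

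**Figure D3:**
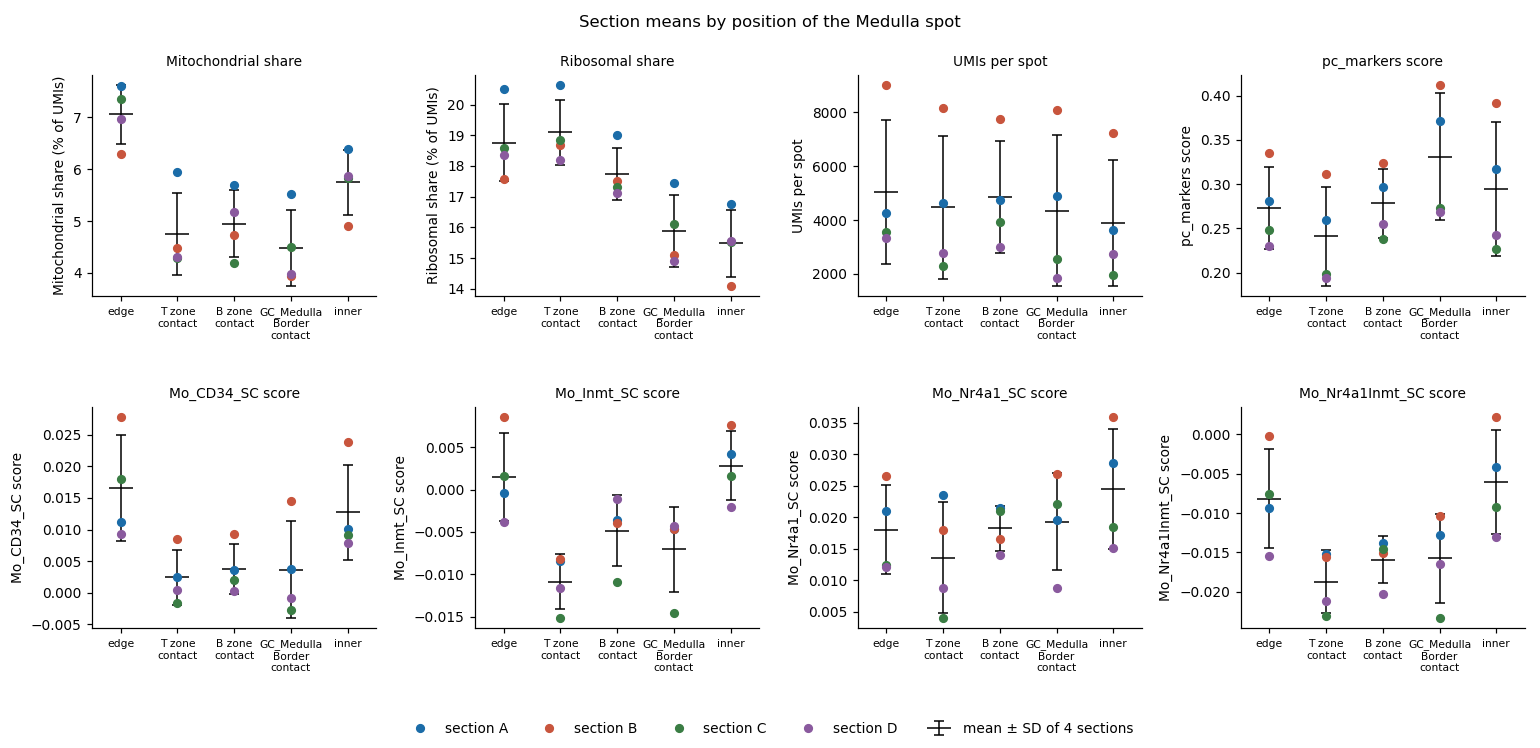
Section means of 8 measures by position of the Medulla spot, with a coloured point for each of sections A to D and a black bar for the mean ± SD of 4 sections. The ribosomal share of T zone contact spots (18.2 to 20.6%) lies above that of inner spots (14.1 to 16.8%), and all stromal scores are lower in T zone contact spots than in inner spots of the same section.

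Both sides of the boundary were then taken apart. In T zone contact spots all 10 measures kept 1 direction in 4 of 4 sections, and in B zone contact spots 7 of 10 did. At the B zone Mo_Inmt_SC differed from inner spots by -0.00770 ± 0.00612 and Mo_Nr4a1_SC by -0.00623 ± 0.00959, each below 0 in 3 of 4 sections. The plasma cell score was 0.260, 0.312, 0.198 and 0.193 in sections A to D at the T zone and 0.297, 0.323, 0.238 and 0.254 at the B zone. T zone contact was the lower in every section, at -0.0375 ± 0.0203 (n = 4, sign-flip permutation p = 0.125, adjusted p 0.17), yet within the upper tissue piece the difference was 0.00427. The B zone side against inner spots had no single direction, with a mean of -0.0160 ± 0.0377 and 2 of 4 sections below 0, and without section B that mean was 0.00138. Within the upper piece it was -0.0473, below 0 in 4 of 4 sections, within the lower piece -0.0268, below 0 in 3 of 4, and among spots at least 4 steps from the edge 0.0109. It was -0.0388 after the fit on UMIs and -0.0288 with contact assigned before edge. The ribosomal share was higher at the T zone than at the B zone by 1.36 ± 0.268 points in 4 of 4 sections, and by 0.139 in the upper piece. B zone contact was thinly covered, with 28 to 40 spots per section, and 84 of its 132 spots lay in the lower piece.

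At the border of the germinal centres the plasma cell score was higher over whole sections, but not in every section within a tissue piece. Spots touching GC_Medulla Border averaged 0.371, 0.412, 0.273 and 0.268 in A to D, against 0.317, 0.392, 0.227 and 0.242 in inner spots. They were the higher in every section, by 0.0367 ± 0.0160 (n = 4, exact sign-flip p = 0.125, adjusted p 0.17). In the upper piece the difference was 0.00258 ± 0.0654 and above 0 in 1 of 4 sections, and the lower piece gave 0.0164 ± 0.0314, with 2 of 4 above 0. Of the 128 spots, 90 lay in the lower piece, whose medulla had the higher score, while 659 of the 1005 inner spots lay in the upper piece.

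In the same spots the mitochondrial share was 5.53, 3.93, 4.49 and 3.99% in A to D, below inner spots in 4 of 4 sections, with a difference of -1.27 ± 0.462 points. Within the upper piece this difference was -0.754 and within the lower one -0.425, below 0 in 3 of 4 and in 4 of 4 sections. Mo_CD34_SC, Mo_Inmt_SC and Mo_Nr4a1Inmt_SC differed by -0.00908 ± 0.00231, -0.00987 ± 0.00591 and -0.00969 ± 0.00478, below 0 in 4 of 4 sections. The Mo_CD34_SC difference was -0.0156 in the upper and -0.00544 in the lower piece. The ribosomal share, which set the T zone and B zone sides apart, differed here by 0.409 ± 0.729 points and was higher in 3 of 4 sections.

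With distance from any other region, the plasma cell score was highest some steps away and lower in the farthest spots. Tissue edge spots were included here, so the farthest spots need not lie deep inside the medulla. By steps from the nearest spot of another region, pc_markers averaged 0.260 ± 0.0568 at 1 step, 0.282 ± 0.0643 at 2, 0.297 ± 0.0678 at 3, 0.316 ± 0.0745 at 4, 0.305 ± 0.0872 at 5 and 0.237 ± 0.0546 at 6 or more. The ribosomal share ran the other way, from 18.6% at 1 step to 15.2% at 4 and 17.7% at 6 or more, and the mitochondrial share went from 4.80% at 1 step to 6.36% at 4 and 8.34% at 6 or more. The farthest bin held 75 spots, as few as 13 in a section. Mo_Inmt_SC was -0.00947 at 1 step, 0.000761 at 2 and 0.00443 at 3 steps.

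**Figure D4:**
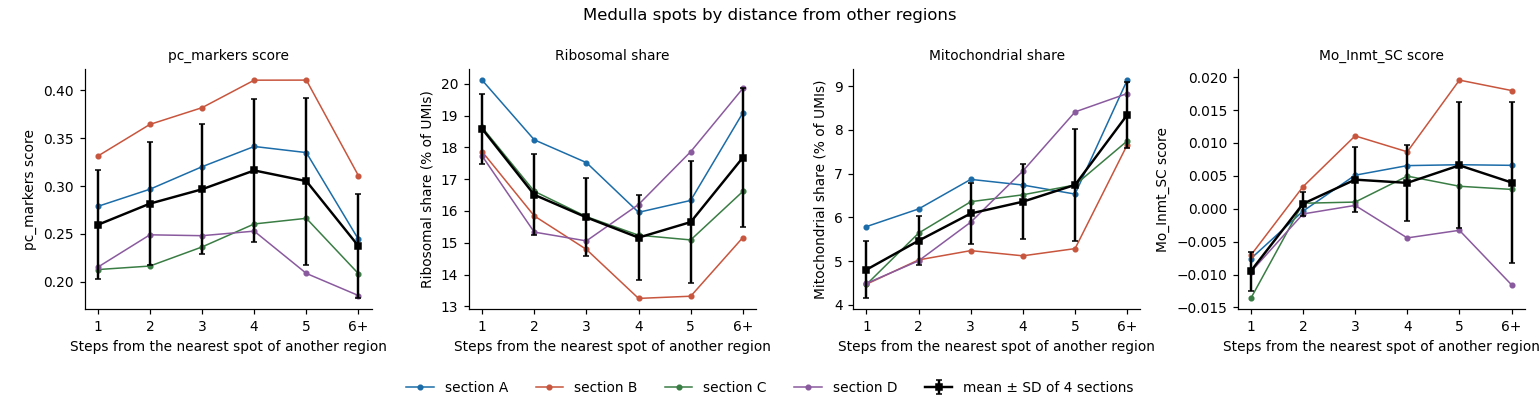
Section means of 4 measures in Medulla spots against the number of array steps from the nearest spot of another region, with coloured lines for sections A to D and black squares for the mean ± SD of 4 sections. The plasma cell score reaches 0.316 at 4 steps and is 0.237 at 6 or more, where the mitochondrial share is 8.34%.

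Counted from the germinal centres, the mitochondrial share was also higher in farther spots. It averaged 4.46% in Medulla spots 2 steps from the nearest dark zone or light zone spot, 5.36% at 5 steps, 5.88% at 10 and 7.99% at 12 or more. At 12 or more steps it was 8.64%, 7.40%, 8.06% and 7.85% in A to D, and at 2 steps 5.54, 4.04, 4.25 and 4.01%, so the section means did not overlap. Over the same steps Mo_CD34_SC went from 0.00169 to 0.0212 and pc_markers from 0.298 to 0.232. The distances from the edge, from other regions and from germinal centres were not separated from one another in a joint fit. All steps were taken over both tissue pieces together, whose mitochondrial share and plasma cell score differed, as given next. Distance and piece were not separated either.

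The tissue of every section lay in 2 pieces, named upper and lower by their array rows. The same name was taken to mean corresponding tissue from section to section. Medulla spots of the upper piece had a mitochondrial share higher by 1.91 ± 0.454 points and a plasma cell score that differed by -0.0547 ± 0.0158, each in 4 of 4 sections (n = 4, exact sign-flip p = 0.125, adjusted p 0.18 over 10 measures). The mean shares were 6.36% ± 0.422 in the upper and 4.45% ± 0.795 in the lower piece, and the mean scores 0.257 ± 0.0642 and 0.311 ± 0.0589. The ribosomal share differed by 1.56 ± 0.993 points and UMIs by 895 ± 936, both higher in the upper piece in 4 of 4 sections. For Mo_Inmt_SC the pieces had no single order, with 2 of 4 sections each way.

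Inside the medulla the plasma cell score correlated weakly and positively with each of the 4 stromal scores. Over the Medulla spots of a section, Spearman's rho of pc_markers with Mo_Nr4a1_SC was 0.277, 0.267, 0.290 and 0.333 in A to D, a mean of 0.292 ± 0.0289. With Mo_Inmt_SC it was 0.236 ± 0.0747, with Mo_CD34_SC 0.216 ± 0.0730 and with Mo_Nr4a1Inmt_SC 0.180 ± 0.0158, all above 0 in 4 of 4 sections. Held at equal UMIs by a partial correlation, the means were 0.282, 0.239, 0.164 and 0.173. Spots of a section share a library and neighbours, and the measures of a spot share its UMIs, so these values are a description without a p-value. Between the stromal scores themselves, mean rho ran from 0.291 for Mo_CD34_SC with Mo_Nr4a1_SC to 0.604 for Mo_Inmt_SC with Mo_Nr4a1Inmt_SC.

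By position, the relation of plasma cell and stromal scores had no common order. With Mo_Nr4a1_SC the mean rho was 0.193 in contact spots, 0.294 in inner spots and 0.299 in edge spots, and with Mo_Nr4a1Inmt_SC it was 0.0999 in contact spots, above 0 in 3 of 4 sections. In edge spots Mo_Nr4a1Inmt_SC gave 0.180 ± 0.196, also above 0 in 3 of 4. With Mo_CD34_SC contact spots had the highest mean, 0.236 ± 0.161, against 0.184 ± 0.0961 in inner and 0.139 ± 0.175 in edge spots. Its contact and edge values were each above 0 in 3 of 4 sections. With Mo_Inmt_SC the means were 0.191 in contact, 0.240 in inner and 0.193 ± 0.233 in edge spots, the last above 0 in 3 of 4. Whether the positions differ was not tested. In the T zone and B zone the same relation with Mo_Nr4a1_SC had means of 0.132 and 0.122, and in GC_Medulla Border 0.315. With Mo_CD34_SC the order was another, at 0.363 in B zone and 0.233 in T zone.

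A stronger relation in the medulla was that of the plasma cell score with the ribosomal share, which ran against each other. The Spearman correlation was -0.680, -0.738, -0.491 and -0.634 in A to D, a mean of -0.636 ± 0.105, and -0.710 at equal UMIs. It was -0.615 in edge spots, -0.530 in contact spots and -0.697 in inner spots, and -0.547 and -0.711 in the upper and lower pieces. In GC_Medulla Border, which shares the expression cluster of the medulla, it was -0.642, against -0.244 in T zone and -0.0473 in B zone. The mitochondrial share also ran against pc_markers, with a mean rho of -0.331 ± 0.0802, and -0.213 and -0.247 within the upper and lower pieces. It was -0.491 in inner, -0.416 in edge and -0.187 in contact spots. Both shares are percents of a spot's total UMIs, to which plasma cell transcripts also add. A correlation at equal UMIs does not remove this link, and its part in the relations was not tested.

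**Figure D5:**
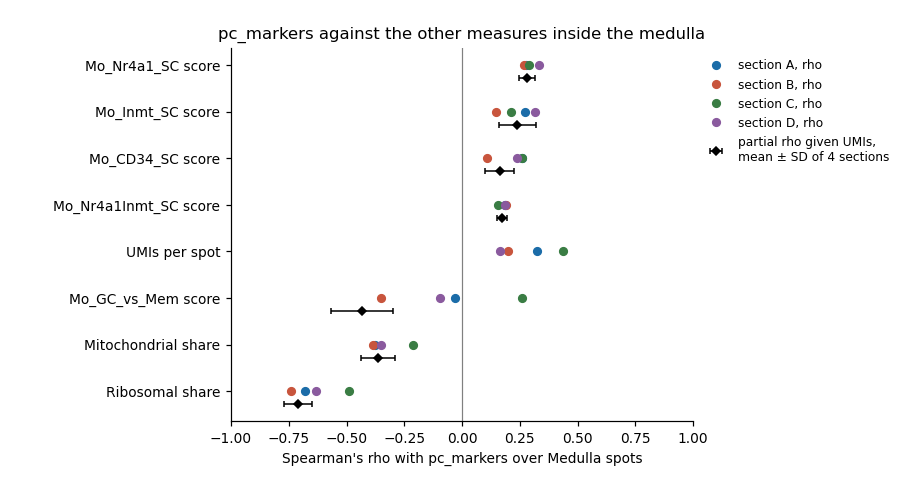
Spearman's rho of pc_markers with 8 other measures over the Medulla spots of each section (coloured points), and the partial rho at equal UMIs as mean ± SD of 4 sections (black diamonds). The 4 stromal scores lie to the right of 0 and the mitochondrial and ribosomal shares to the left in all sections.

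For the germinal centre score the relation depended on UMIs. Its rho with pc_markers was -0.0283, -0.349, 0.262 and -0.0950 in A to D, with no single direction. At equal UMIs the mean was -0.433 ± 0.136, below 0 in 4 of 4 sections.

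Medulla spots were also ranked within each section by pc_markers and the highest and lowest 25% compared, as a description of spots chosen on that score. The highest 25% had a ribosomal share of 13.1% ± 0.988 and the lowest 19.5% ± 1.10, and mitochondrial shares of 4.47 and 6.14%. Mo_Nr4a1_SC was 0.0320 in the highest and 0.0106 in the lowest 25%, Mo_Inmt_SC 0.00645 and -0.00848, and Mo_CD34_SC 0.0152 and 0.00265. The highest 25% held 45.5% ± 5.13 of the spots touching GC_Medulla Border, 30.6% ± 2.82 of inner spots, 25.7% ± 6.78 of B zone contact spots, 19.9% ± 7.59 of edge spots and 12.2% ± 1.13 of T zone contact spots. T zone contact spots ranged from 11.3 to 13.7% over sections and edge spots from 11.5 to 29.7%, so these overlapped. Both tissue pieces of a section were ranked together, so position and piece are not separated in these shares. The lower piece, whose medulla had the higher plasma cell score, held 90 of 128 GC_Medulla Border contact spots and 84 of 132 B zone contact spots. Of the inner spots, 659 of 1005 lay in the upper piece, as did 271 of 462 T zone contact spots. Of the 52 spots touching both zones, 5 were in the highest 25%, all of them in section C.

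Position classes covered a small part of what varied among Medulla spots. For this, T zone and B zone contact formed 1 class. The 16 spots touching only another germinal centre border were put with GC_Medulla Border contact. These classes accounted for 19.7% ± 6.43 of the variance of the ribosomal share within sections, 18.4% ± 6.57 for the mitochondrial share and 14.3% ± 4.10 for Mo_GC_vs_Mem. They accounted for only 6.38% ± 4.69 for pc_markers and 4.06% ± 4.02 for Mo_Nr4a1_SC. Neighbouring spots were nonetheless alike. Over the 2107 Medulla spots with a Medulla neighbour, rho of a spot's value with the mean of those neighbours was 0.841 ± 0.0502 for the mitochondrial share, 0.756 ± 0.0486 for the ribosomal share and 0.670 ± 0.0521 for pc_markers. It was 0.413 ± 0.0907 for Mo_CD34_SC and 0.238 ± 0.0388 for Mo_Nr4a1_SC. The plasma cell score of a spot had a rho of 0.272 ± 0.0585 with the mean Mo_Nr4a1_SC of its Medulla neighbours. That mean can cover several spots, so the value cannot be set directly against the 0.292 found with a spot's own score.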

How the data were processed

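Permeabilization took 18 min and the libraries had 16 PCR cycles, per the labels' protocols. Seurat 4.2.1, the build mm10 and Space Ranger 1.3.1 are listed in the submitters' processing notes. The sources used here do not state parameters, the filter on spots or how regions were named. The authors deposited 1 line per spot with raw counts of UMIs and genes, the percent of UMIs from mitochondrial and ribosomal genes, 6 scores and region names. Array rows and columns are other deposited values, and 4 deposited alignment files with 4992 capture spots each gave the tissue mark. Tissue-marked spots absent from the table (20, 33, 38 and 29 in A to D) were not used.

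Means over the spots of a class were formed per section, and differences were tested two-sided by an exact permutation of their signs (16 assignments, called sign-flip p) with Benjamini-Hochberg adjustment (Python 3.11.15, scipy 1.17.1). Neighbours are the 6 adjacent array positions. The functions were tested on simulated data. All deposited measures were named and no single gene, by rule. The members and lists were chosen with earlier results of these data known. Alternatives were spots of at least 1000 UMIs, medians, ranks, a fit on log10 UMIs, the tissue mark, single pieces, another class order and each section left out. Chosen after seeing the data were at least 4 steps from the edge, another edge reference, the B zone edge, the capture area limit and relations with both percents.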

Additional observations from a re-analysis of the deposited data

Results flagged for a closer look

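Examined were 70 results, the 60 class differences and the mean medulla level of each of 10 measures. Of these, 5 had a section standing apart from the other 3 by more than the 95% limit for 4 values. Chance alone flags about 1 in 20. For B zone contact minus inner spots, Mo_CD34_SC differed by -0.0146 in section B. The other 4 concerned T zone contact minus B zone contact. Genes per spot differed by -476.9 in C, where 28 spots touched the B zone alone, Mo_GC_vs_Mem by -0.0209 in C, Mo_Inmt_SC by -0.0105 in D and Mo_Nr4a1Inmt_SC by -0.00857 in C. The Mo_Inmt_SC difference also had opposite signs in the tissue pieces, at 0.00403 in the upper, above 0 in 4 of 4 sections, and -0.0117 in the lower, below 0 in 4 of 4. The difference between pieces was not tested.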

How the results depend on the processing

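Among 538 alternative values of the class comparisons, 527 kept their direction and 11 reversed, and none could cross a threshold with 4 sections. In the upper tissue piece, T zone minus B zone contact turned to 0.00427 for pc_markers, 0.00902 for Mo_CD34_SC, 0.00403 for Mo_Inmt_SC, 0.00272 for Mo_Nr4a1_SC and 0.00414 for Mo_Nr4a1Inmt_SC, where 48 spots touched the B zone alone. With a fit on log10 UMIs its Mo_CD34_SC difference was 8.77e-07. At 4 or more steps from the edge, B zone contact minus inner was 0.0109 for pc_markers and 0.000417 for Mo_CD34_SC. Edge minus inner for Mo_Inmt_SC was 0.000303 with contact assigned before edge and 0.00411 against all spots with 6 neighbours, where Mo_Nr4a1Inmt_SC gave 0.00326. The causes were not tested. Of 240 values with a section left out, 4 reversed. B zone contact minus inner for pc_markers ranged from -0.0254 to 0.00138. T zone minus B zone contact ranged from -648.8 to 21.9 for UMIs, from -131.3 to 62.6 for genes and from -0.334 to 0.0350 for the mitochondrial share. The 48 alternative values of the relations kept their sign, and 10 moved by more than the spread between sections. No paired analysis was possible because all samples are of 1 group, so that replicate numbers pair no groups. The class differences were themselves taken within sections. Depth was lowest in section C, with 67 spots under 1000 UMIs.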
